A study of Mus musculus with 18 samples.

Results

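AP-1 is a dimeric transcription factor built from basic leucine zipper (bZIP) proteins of the Fos, Jun, Atf and Batf families. The 9 genes described here are the Fos-family subunits Fos, Fosb, Fosl1 and Fosl2, the Jun-family subunits Jun, Junb and Jund, and the relatives Atf3 and Batf. They were chosen by gene symbol from the 20825 genes of the deposited table, where their Entrez Gene IDs are 14281 (Fos), 14282 (Fosb), 14283 (Fosl1), 14284 (Fosl2), 16476 (Jun), 16477 (Junb), 16478 (Jund), 11910 (Atf3) and 53314 (Batf). All 9 were present in the table and all 9 passed the filter on low values.

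Jun proteins pair with one another or with Fos proteins, whereas Fos proteins need a Jun partner to bind DNA. Mitogen-activated protein kinases (ERK, JNK and p38) raise the transcription of several subunit genes and phosphorylate the proteins, so that many of these mRNAs climb within minutes of stress and decay quickly. In the kidney, Jun, Fos and Atf3 are long known as early genes of ischemic injury in the tubule, and Batf is best known from lymphocytes and dendritic cells.

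The study measured kidney RNA by sequencing in C57BL/6 mice of postnatal week 11. In unilateral ischemia and reperfusion (UIR), the vessels of the right kidney were clamped for 45 minutes and then released, and the other kidney was not touched. Libraries were made 1, 3 and 21 days after UIR or sham surgery, with 3 biological replicates in each of the 6 groups. The labels give neither the kidney sampled, nor the sex, nor whether animals were pooled. Values are FPKM (fragments per kilobase of transcript, relative to the mapped fragments of the library), which are scaled by transcript length, so levels of different genes can be set side by side. Differences are limma estimates on log2(FPKM + 1), which understate the change of low genes, and a gene is called when its adjusted p, by the Benjamini-Hochberg method over 14716 genes, is under 0.05.

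The libraries carried the markers of kidney, among them summed FPKM of 9 proximal tubule genes of 6119 to 7155 in sham mice at day 21. Those sums were 62.2 to 345.0 in UIR mice at day 21, while 7 injured-tubule genes, among them Havcr1 and Lcn2, were all called higher on each day. Fewer cells of a type and less RNA per cell cannot be told apart in bulk tissue. Genes of adipose tissue, adrenal gland and skeletal muscle were low, with a highest sum of 9.76 FPKM in any library. UIR replicate 3 of day 1 stood apart from the other UIR libraries of that day: its summed AP-1 level was 547.0 FPKM against 813.1 and 1145.0, its 4 podocyte genes summed to 207.2 FPKM against 75.92 and 93.92, and its proximal tubule sum was 979.0 FPKM against 1937 and 2572. Day-1 results are therefore given with and without it where they turn on it.

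Several of these genes are known to be switched on through CRE-like and AP-1-like letters just before their start sites, and the stretches of 5 immediate early subunit genes are shown because such letters stand close to their start sites. The 120 bases before the RefSeq start site (GRCm38.p6) are printed 5′ to 3′ on the gene's strand. Capitals mark TGACG, a part of the CRE that CREB and Atf proteins bind, in Fos, Fosb and Junb, the longer TGACATCA in Jun and TTACGTCA in Atf3. The stretches are those of Fos (chr12:85473770-85473889, plus strand), Fosb (chr7:19310046-19310165, minus strand), Jun (chr4:95052223-95052342, minus strand), Junb (chr8:84978749-84978868, minus strand) and Atf3 (chr1:191183334-191183453, minus strand).
Fos: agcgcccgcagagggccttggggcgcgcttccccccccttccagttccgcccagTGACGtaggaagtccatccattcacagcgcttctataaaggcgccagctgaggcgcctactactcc
Fosb: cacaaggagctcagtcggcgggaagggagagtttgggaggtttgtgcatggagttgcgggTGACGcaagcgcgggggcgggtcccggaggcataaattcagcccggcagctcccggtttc
Jun: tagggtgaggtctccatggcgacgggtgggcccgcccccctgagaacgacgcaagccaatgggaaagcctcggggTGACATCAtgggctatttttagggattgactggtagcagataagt
Junb: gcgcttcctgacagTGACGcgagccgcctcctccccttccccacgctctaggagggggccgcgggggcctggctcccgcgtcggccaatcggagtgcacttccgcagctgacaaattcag
Atf3: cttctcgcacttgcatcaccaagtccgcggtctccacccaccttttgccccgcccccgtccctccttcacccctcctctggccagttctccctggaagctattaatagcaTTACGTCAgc

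Of the 9 genes 8 had an entry in the set of promoter windows used, all but Fosl1. Within 250 bases before the start, searched on both strands with letters chosen after the sequences had been seen, TGACG stood in 5 of the 8 (Fos, Fosb, Junb, Atf3 and Batf), and in 17.8% of all 32851 windows. TGACATCA was found in Jun and in 2.93% of windows, and TTACGTCA, which on its other strand contains TGACG, in Atf3 and in 0.447%. The full AP-1 letters TGACTCA stood in 0 of the 8 and in 4.46% of windows, and the full CRE TGACGTCA in 0 and in 1.55%. In Fos the capitals lie 66 to 62 bases before the start, in Jun 45 to 38 and in Atf3 10 to 3. These are matches of letters in one window and no measure of binding.

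Transcripts of AP-1 subunits were higher after UIR than after sham surgery on every day studied. Fosl2, Jun, Junb, Jund and Atf3 were called higher on all 3 days, Fosb and Fosl1 at day 1 but not on every later day, and Fos and Batf at day 3 and day 21 but not at day 1. At day 1, 7 of 9 were called higher and 0 lower, against 28.5% and 31.1% of all genes tested. At day 3, 8 were higher and 0 lower, against 57.6% and 17.9%, and at day 21 again 8 and 0, against 60.7% and 20.1%. No estimate was negative for any of the 9 on any day, with the lowest at 0.20, 0.76 and 0.36. The median log2 difference of the 9 genes was 1.60 at day 1 (−0.03 over all genes), 1.92 at day 3 (0.44) and 2.74 at day 21 (0.53). The UIR and sham libraries did not overlap for 7 genes at day 1, where 29.5% of all genes were higher without overlap, and for all 9 at day 3 and day 21, where 59.3% and 62.8% were. As deposited, the calls over all genes leaned upward on the later days, with 76.3% of them higher at day 3 and 75.2% at day 21. Rescaling by median of ratios centres the typical gene by design. It brought the median of all genes to 0.03 on both days, and the share of calls that were higher to 51.3% and 51.0%. Whether the lean comes from the scale or from the tissue was not tested. With median-of-ratios scaling 7 of the 9 were still called higher at day 1, 7 at day 3 and 8 at day 21, and 0 lower.

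**Figure D1:**
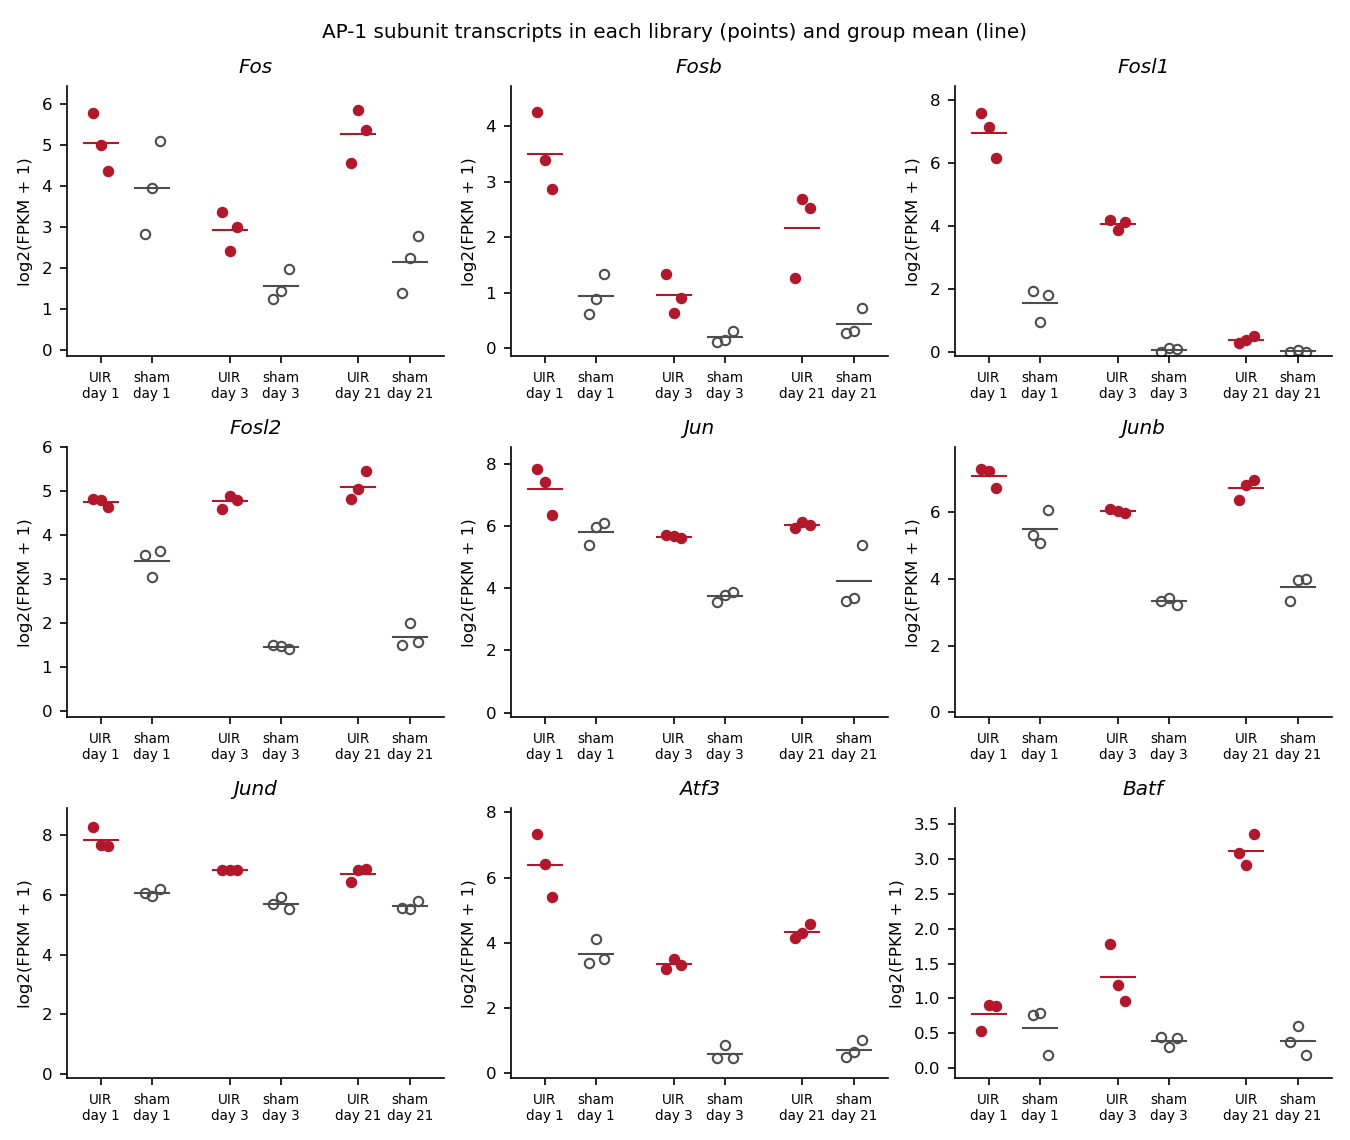
Level of each AP-1 gene on a log2(FPKM + 1) axis in all 18 libraries, with UIR (filled, red) left of sham (open, grey) on each day and a line at each group mean. Fosl1 is highest at day 1 and near 0 at day 21, Fosl2 lies between 23.16 and 43.16 FPKM in all UIR libraries, and Batf is high at day 21 in UIR libraries.

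Fosl1 (Fra-1), a Fos protein without a transactivation domain that is linked to migration and invasion, marked the early days. It stood at 192.86, 142.06 and 70.40 FPKM in UIR mice at day 1, against 2.84, 0.91 and 2.47 FPKM in sham mice. Every UIR library was far above every sham library, and the log2 difference was 5.42 ± 0.28 (SE), adjusted p = 6.5e-10 by limma. At day 3 it was at 17.41, 13.78 and 16.56 FPKM in UIR mice, against 0, 0.09 and 0.05 FPKM in sham mice (log2 difference 4.01, limma adjusted p = 3.1e-09). At day 21 the UIR libraries held only 0.22, 0.30 and 0.40 FPKM, against 0, 0.04 and 0 FPKM in sham libraries. The groups still did not overlap at day 21, but the difference of 0.36 was not called (limma adjusted p = 0.24) with a pseudocount of 1. It was called with a pseudocount of 0.1 (1.84, adjusted p = 0.00047), as TPM (0.73, adjusted p = 0.04) and in a fit of that day's groups alone (0.36, adjusted p = 0.0043). Within UIR mice, Fosl1 was lower at day 21 than at day 1 by a log2 difference of −6.59 (limma adjusted p = 2.2e-11) and lower than at day 3 by −3.69 (adjusted p = 2.9e-08).

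Fosl2 (Fra-2), the other Fos protein without a transactivation domain, was called higher on all 3 days. It stood at 27.30, 26.77 and 24.13 FPKM in UIR mice at day 1, against 10.70, 7.22 and 11.49 FPKM in sham mice. At day 3 they were 23.16, 28.84 and 26.94 FPKM in UIR mice, against 1.83, 1.78 and 1.66 FPKM in sham mice. Day 21 gave 27.17, 31.93 and 43.16 FPKM in UIR mice, against 1.84, 2.97 and 1.98 FPKM in sham mice. UIR replicates 2 and 3 of day 21 were above all UIR libraries of the earlier days, while no UIR comparison between days was called for Fosl2 (log2 difference 0.01 for day 3 minus day 1, 0.34 for day 21 minus day 3 and 0.35 for day 21 minus day 1, limma adjusted p of 0.97, 0.11 and 0.079). The sham libraries of day 1 lay above those of both later days. The log2 differences on days 1, 3 and 21 were 1.35 ± 0.17, 3.30 ± 0.17 and 3.42 ± 0.17 (SE, limma adjusted p of 6.7e-06, 1.2e-10 and 5.9e-11).

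Fos, the founding immediate early subunit, spread widely between libraries. At day 1 it was at 53.64, 30.70 and 19.64 FPKM in UIR mice, against 6.06, 14.31 and 32.99 FPKM in sham mice. Those groups overlapped, and the log2 difference of 1.09 ± 0.51 (SE) was not called (limma adjusted p = 0.078). It was called without sham replicate 3 of day 1 (1.66, adjusted p = 0.0098) and without UIR replicate 3 of day 1 (1.43, adjusted p = 0.038). Day 3 gave 9.22, 4.37 and 7.01 FPKM in UIR mice, against 1.39, 1.72 and 2.95 FPKM in sham mice. Each UIR library was higher, with a log2 difference of 1.37 (limma adjusted p = 0.024) that was no longer called without sham replicate 1 or 2 or without UIR replicate 1 or 3 of that day (adjusted p of 0.076, 0.059, 0.087 and 0.055) or with median-of-ratios scaling (0.96, adjusted p = 0.12). Quantile normalization (0.73, adjusted p = 0.23) and a pseudocount of 5 (0.74, adjusted p = 0.097) lost that call as well. At day 21 Fos stood at 22.52, 56.11 and 39.97 FPKM in UIR mice, against 1.64, 3.77 and 5.84 FPKM in sham mice. That is as high as in UIR mice of day 1, from which it did not differ detectably (log2 difference 0.21 ± 0.51, limma adjusted p = 0.73), and 3.11 above sham (adjusted p = 3.6e-05).

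Fosb, an activity-induced Fos protein, had its highest levels at day 1, with 18.09, 9.47 and 6.32 FPKM in UIR mice, against 0.53, 0.85 and 1.52 FPKM in sham mice (log2 difference 2.56, limma adjusted p = 1.4e-05). At day 3 it was low in all libraries, with 1.52, 0.54 and 0.86 FPKM in UIR mice, against 0.08, 0.11 and 0.24 FPKM in sham mice. The UIR libraries were each higher, but the difference of 0.76 was not called (adjusted p = 0.063). It was called with a pseudocount of 0.1 (2.09, adjusted p = 0.0026), as TPM (1.30, adjusted p = 0.011), in a fit of that day's groups alone, and without UIR replicate 1 or 3 of day 1 or UIR replicate 1 of day 21. By day 21 the UIR libraries were at 1.41, 5.43 and 4.76 FPKM, against 0.20, 0.24 and 0.66 FPKM in sham libraries, with no overlap and a log2 difference of 1.72 (limma adjusted p = 0.00031). UIR replicate 1 of day 21 was the lowest UIR library of that day for Fos and Fosb alike.

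**Figure D2:**
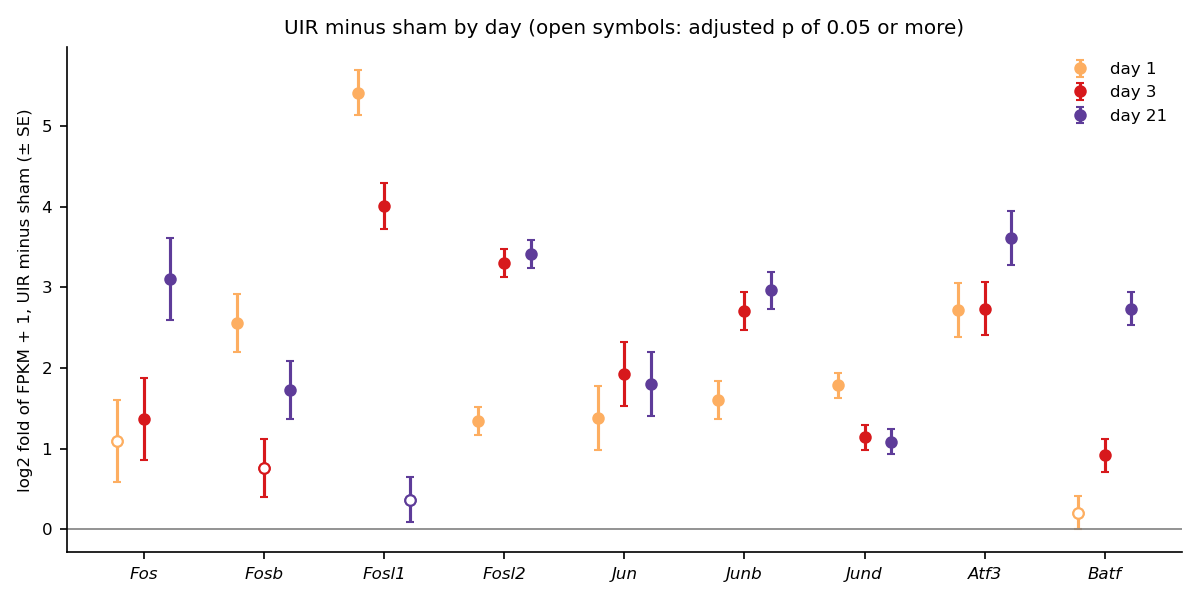
Log2 difference of FPKM + 1, UIR minus sham, for the 9 genes at day 1 (orange), day 3 (red) and day 21 (purple), with standard errors and open symbols where the adjusted p is 0.05 or more. Fosl1 goes from 5.42 at day 1 to 0.36 at day 21 and Batf from 0.20 to 2.74, while Jun stays between 1.38 and 1.92.

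Jun, the first Jun protein described and a main target of JNK, was at 227.38, 168.38 and 79.65 FPKM in UIR mice at day 1, against 40.73, 61.17 and 66.79 FPKM in sham mice. UIR replicate 3 lay nearest to the sham libraries, without overlap, and the log2 difference was 1.38 ± 0.40 (SE, limma adjusted p = 0.0068). At day 3 the libraries were close together within each group, with 50.63, 49.85 and 47.50 FPKM in UIR mice, against 10.68, 12.69 and 13.65 FPKM in sham mice (1.92, adjusted p = 0.00037). The day-21 values of Jun were 59.90, 68.58 and 64.89 FPKM in UIR mice, against 11.04, 11.95 and 41.25 FPKM in sham mice. Sham replicate 3 was far above the other sham libraries of day 21 and still below every UIR library. UIR minus sham was 1.80 there (adjusted p = 0.00056).

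Junb, which can curb or replace Jun depending on its partner, was at 157.26, 149.87 and 106.10 FPKM in UIR mice at day 1, against 39.09, 32.96 and 66.15 FPKM in sham mice (log2 difference 1.60, limma adjusted p = 2.4e-05). It stood at 67.94, 64.38 and 61.70 FPKM in UIR mice at day 3, against 9.08, 9.89 and 8.26 FPKM in sham mice (2.71, adjusted p = 3.3e-08). At day 21 the values were 82.21, 111.38 and 125.69 FPKM in UIR mice, against 9.09, 14.53 and 14.95 FPKM in sham mice (2.96, adjusted p = 7.3e-09). Groups never overlapped. In UIR mice, Junb was higher at day 21 than at day 3 (log2 difference 0.69, adjusted p = 0.02), a call lost without UIR replicate 3 of day 3 or without UIR replicate 2 or 3 of day 21 (adjusted p of 0.055, 0.058 and 0.085).

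Jund, the subunit with the steadiest expression in resting tissue, had the highest level of the 9 genes in every group but UIR at day 21. It was at 308.19, 200.97 and 198.21 FPKM in UIR mice at day 1, against 66.13, 61.35 and 71.71 FPKM in sham mice (log2 difference 1.78, limma adjusted p = 1.3e-07). At day 3 the UIR libraries read 114.12, 114.03 and 114.05 FPKM, against 50.28, 59.45 and 44.93 FPKM in sham libraries (1.14, adjusted p = 6.8e-06). Day 21 gave 85.17, 112.10 and 115.15 FPKM in UIR mice, against 45.90, 44.71 and 54.07 FPKM in sham mice (1.09, adjusted p = 8.8e-06). No sham library reached a UIR library on any day. With median-of-ratios scaling the later differences were smaller, 0.61 at day 3 (adjusted p = 0.0065) and 0.47 at day 21 (adjusted p = 0.025).

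Atf3, a stress-induced bZIP protein that represses many inflammatory promoters, was at 160.09, 84.02 and 41.73 FPKM in UIR mice at day 1, against 9.35, 16.42 and 10.33 FPKM in sham mice (log2 difference 2.72, limma adjusted p = 4.1e-06). It was at 8.14, 10.35 and 9.07 FPKM in UIR mice at day 3, against 0.39, 0.82 and 0.39 FPKM in sham mice (2.74, adjusted p = 1.7e-06). At day 21 it was at 16.70, 18.59 and 22.75 FPKM in UIR mice, against 0.42, 0.56 and 1.02 FPKM in sham mice (3.62, adjusted p = 4.8e-08). All UIR libraries exceeded all sham libraries of their day. With sham values near or under 1 FPKM on the later days, the size of these differences depended on the setting. Over the alternatives that kept all libraries it ran from 1.36 to 3.94 at day 3 and from 2.10 to 4.73 at day 21. Within UIR mice Atf3 was lower at day 3 than at day 1 (−3.04, adjusted p = 1e-06) and higher at day 21 than at day 3 (0.99, adjusted p = 0.019). That second call was lost without UIR replicate 1 of day 3 (adjusted p = 0.058) or UIR replicate 3 of day 21 (adjusted p = 0.067).

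Batf, a bZIP protein without a transactivation domain that pairs with Jun proteins and is needed for several T helper fates, was low on day 1 and highest on day 21. At day 1 it was at 0.44, 0.88 and 0.86 FPKM in UIR mice, against 0.69, 0.72 and 0.14 FPKM in sham mice. The groups overlapped, and the log2 difference of 0.20 ± 0.20 (SE) was not called (limma adjusted p = 0.42). At day 3 it was at 2.43, 1.29 and 0.94 FPKM in UIR mice, against 0.36, 0.23 and 0.35 FPKM in sham mice (0.92, adjusted p = 0.00073, and 0.38 with adjusted p = 0.1 after quantile normalization). At day 21 it reached 7.47, 6.58 and 9.31 FPKM in UIR mice, against 0.29, 0.52 and 0.14 FPKM in sham mice (2.74, adjusted p = 3.9e-09).

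Markers of T and NK cells and of macrophages were called higher, like Batf, at day 3 and day 21. The 6 T and NK cell genes (Cd3e, Cd3d, Cd8a, Cd4, Nkg7 and Gzmb) summed to 0.93 to 2.02 FPKM in UIR mice at day 1, against 2.81 to 3.17 FPKM in sham mice. At day 3 they summed to 40.24, 22.58 and 5.53 FPKM in UIR replicates 1 to 3, the same order of libraries as Batf, against 3.30 to 5.80 FPKM in sham mice. At day 21 they summed to 72.99 to 95.41 FPKM in UIR mice, against 2.45 to 3.90 FPKM in sham mice. UIR replicate 3 of day 3 lay within the sham range. All 6 were called higher at day 3 and at day 21 by limma, but 1 of 6 at day 3 after quantile normalization. The 6 macrophage genes summed to 2992 to 4220 FPKM in UIR mice at day 21, against 46.45 to 58.50 FPKM in sham mice, and the 5 B and plasma cell genes to 41.82 to 79.11 FPKM, against 4.79 to 5.33 FPKM. At day 3 the B and plasma cell sums were 1.95 to 4.60 FPKM in UIR mice, against 2.60 to 3.40 FPKM in sham mice, and of 3 tested genes 0 were called higher and 1 lower. Neutrophil sums took another course and were highest at day 1, when Batf was low, with 116.7 to 219.8 FPKM at day 1, 14.64 to 29.66 at day 3 and 22.99 to 71.60 at day 21 in UIR mice, against 22.17 to 73.57, 7.11 to 9.96 and 4.38 to 7.29 FPKM in sham mice. The order of the UIR libraries of day 3 was not particular to Batf, T and NK cells and macrophages. Neutrophil, B and plasma cell, endothelial and stromal sums fell in the same order, the stromal sum from 317.3 to 217.9 and 100.5 FPKM. Podocyte and injured-tubule sums ran in the opposite order. Cd3e, Cd3d, Cd8a, Cd4 and Gzmb were each under 1 FPKM in all sham libraries of day 21. The part of these cells in the Batf levels was not tested.

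**Figure D3:**
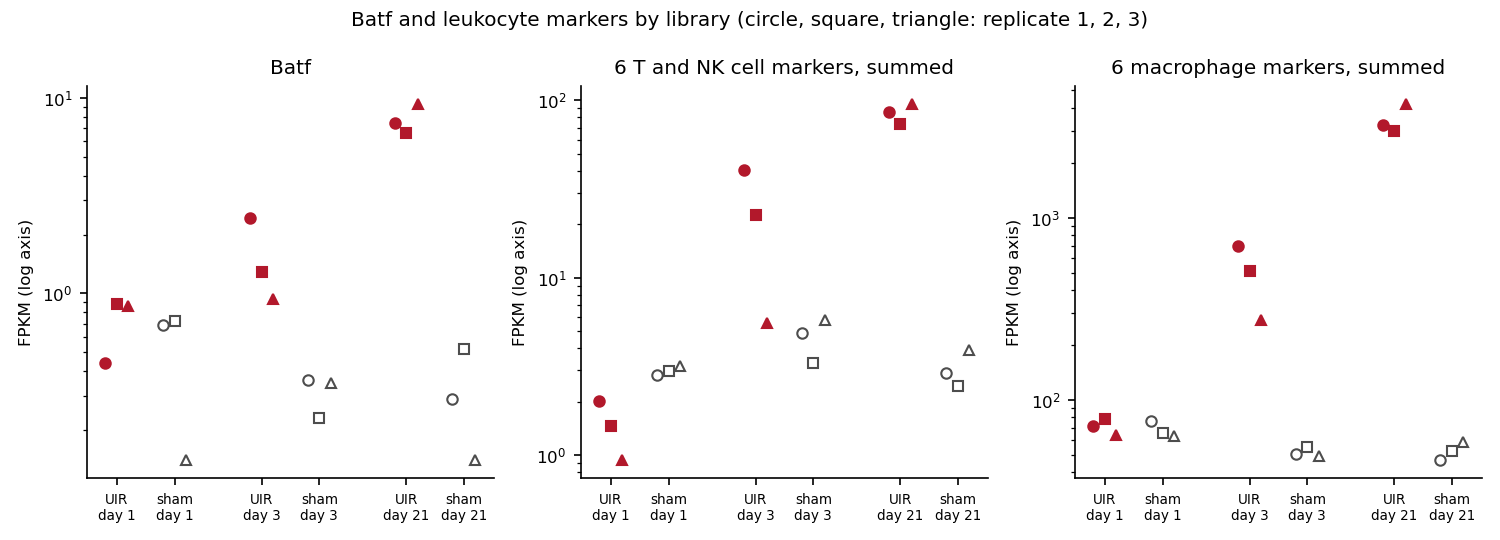
FPKM on log axes of Batf, of 6 summed T and NK cell markers and of 6 summed macrophage markers in each library, UIR (filled, red) left of sham (open, grey) on each day, with symbols for replicate 1 (circle), 2 (square) and 3 (triangle). At day 3 the UIR libraries fall in the order 1, 2, 3 in all 3 panels, an order that stromal, endothelial and neutrophil sums share. At day 21 UIR libraries are above all sham libraries.

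Neutrophil and injured-tubule markers differed between the groups on day 1. The 6 neutrophil genes summed to 116.7 to 219.8 FPKM in UIR mice at day 1, against 22.17 to 73.57 FPKM in sham mice, and 5 of them were called higher and 1 lower. The 7 injured-tubule genes summed to 5375 to 9768 FPKM in UIR mice at day 1, against 726.8 to 978.6 FPKM in sham mice. UIR replicate 3 of day 1 was the highest for the injured-tubule sum, and the lowest for the neutrophil sum and for the summed AP-1 level. Their part in the AP-1 levels was not tested.

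On the later days markers of other cell types differed as well. The 5 stromal genes summed to 100.5 to 317.3 FPKM in UIR mice at day 3, against 25.22 to 44.91 FPKM in sham mice, and to 655.7 to 728.8 FPKM in UIR mice at day 21, against 29.77 to 36.94 FPKM in sham mice. By limma 4 of the 5 were called higher at day 3 and 5 at day 21. At day 21 the 4 podocyte genes summed to 221.9 to 247.2 FPKM in UIR mice, against 78.63 to 99.59 FPKM in sham mice, and the 4 endothelial genes to 170.5 to 199.9 FPKM in UIR mice, against 60.18 to 99.70 FPKM in sham mice. Other sums were lower. The 5 erythroid genes summed to 71.25 to 98.27 FPKM in UIR mice at day 3, against 501.2 to 2123 FPKM in sham mice. All 5 were called lower at day 3 and 0 at day 21. At day 21 the 5 collecting duct genes summed to 59.88 to 75.67 FPKM in UIR mice, against 147.5 to 196.9 FPKM in sham mice. The 5 thick limb and distal genes summed to 441.3 to 688.4 FPKM, against 1062 to 1184 FPKM. The part of these cells in the AP-1 levels of day 3 and day 21 was not tested.

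The sham mice themselves changed between day 1 and day 3. By limma, 6 of the 9 genes were called lower at day 3 than at day 1 in sham mice and 0 higher, against 29.7% and 12.8% of all genes. The log2 differences were −3.06 for Atf3, −2.39 for Fos, −2.16 for Junb, −2.08 for Jun, −1.95 for Fosl2 and −1.49 for Fosl1 (adjusted p from 5.5e-07 for Fosl2 to 0.0015 for Fos). Fosb (−0.75, adjusted p = 0.1), Jund (−0.37, adjusted p = 0.074) and Batf (−0.18, adjusted p = 0.5) were not called. Atf3, for example, averaged 0.53 ± 0.25 FPKM at day 3 and 12.03 ± 3.83 FPKM at day 1 in sham mice (SD, n = 3 each). The day-3 call of Fosl1 was lost with a pseudocount of 5 (−0.48, limma adjusted p = 0.11). Among other settings, Fosb and Jund were called as TPM (adjusted p of 0.033 and 0.014) and in a fit of the groups alone (0.018 and 0.047). At day 21, 7 were lower than at day 1 in sham mice and 0 higher, against 27.2% and 12.3%. The differences were −2.95 for Atf3, −1.81 for Fos, −1.73 for Junb, −1.72 for Fosl2, −1.58 for Jun, −1.54 for Fosl1 and −0.46 for Jund, while Fosb (−0.51, adjusted p = 0.28) and Batf (−0.19, adjusted p = 0.51) were not called. Of these, Fos was lost without sham replicate 3 of day 1 (−1.24, adjusted p = 0.067) or 1 of day 21 (−1.43, adjusted p = 0.06), and Jund without sham replicate 1 or 3 of day 1 or 1 or 2 of day 21 (adjusted p of 0.072 to 0.1). Fos was also lost in a fit of the groups alone (limma adjusted p = 0.053). The Jund call was lost with median-of-ratios scaling (−0.30, adjusted p = 0.21) and that of Fosl1 with a pseudocount of 5 (−0.49, adjusted p = 0.1). Of all calls in sham mice, 30.1% were higher at day 3 and 31.1% at day 21 as deposited, and 51.3% and 51.8% with median-of-ratios scaling. Between day 21 and day 3 of the sham mice, 0 of the 9 genes and 0.034% of all genes (5 of 14716) were called by limma. The differences of the 9 ran from −0.09 for Jund to 0.58 for Fos. At an unadjusted p under 0.05 these were 0 of the 9 and 2284 of all genes.

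Markers of injured tubule, neutrophil, proximal tubule and adipose tissue differed along with these sham levels. Their sums in sham mice were 726.8 to 978.6 FPKM at day 1, 194.2 to 259.7 at day 3 and 183.4 to 216.9 at day 21 for injured tubule. For neutrophils they were 22.17 to 73.57 FPKM at day 1, 7.11 to 9.96 at day 3 and 4.38 to 7.29 at day 21. For proximal tubule they were 2227 to 2591 FPKM at day 1, 6283 to 6731 at day 3 and 6119 to 7155 at day 21. The 4 adipose genes summed to 5.94 to 9.76 FPKM at day 1, 0 to 0.30 at day 3 and 0 to 0.29 at day 21 in sham mice, with both tested genes called lower on the later days, and the defining genes Adipoq and Lep at 0 in all sham libraries of day 1. Their part in the sham levels was not tested.

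Because the day-1 sham level was itself high, UIR at day 1 was also set against the pooled sham mice of days 3 and 21. By limma, 8 of the 9 genes were then higher and 0 lower, against 39.6% and 32.0% of all genes. The log2 differences were 6.93 for Fosl1, 5.72 for Atf3, 3.55 for Junb, 3.21 for Jun, 3.19 for Fosb, 3.19 for Fos, 3.18 for Fosl2 and 2.195 for Jund (adjusted p of 8e-06 or lower). Fos, not called against its own day, was called here, and Jun, Junb, Fosl2 and Atf3 differed by over 1.5 times as much on the log2 scale as against their own day. Batf remained uncalled at 0.39 (adjusted p = 0.061). Day and control are changed together in that comparison and cannot be told apart.

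The change of the UIR-minus-sham difference between days was tested itself, on the same log2 scale. From day 1 to day 3 the difference grew for Fosl2 (by 1.96), Junb (1.10) and Batf (0.72), and shrank for Fosb (−1.80), Fosl1 (−1.41) and Jund (−0.64). These are 3 of 9 in each direction, against 50.1% and 12.7% of all genes (limma adjusted p from 5.8e-06 for Fosl2 to 0.041 for Batf). From day 3 to day 21 it grew for Batf (1.82, adjusted p = 0.00012) and shrank for Fosl1 (−3.64, adjusted p = 3.8e-06), against 26.1% and 20.2% of all genes. From day 1 to day 21 it grew for Batf (2.54), Fosl2 (2.07), Fos (2.01) and Junb (1.36) and shrank for Fosl1 (−5.05) and Jund (−0.70), against 54.1% and 16.3%. Of all calls, 79.7% were higher from day 1 to day 3 and 76.9% from day 1 to day 21 as deposited, and 48.0% and 47.6% with median-of-ratios scaling. Jun and Atf3 were not called in any of the 3, with differences of −0.12 to 0.54 for Jun and 0.02 to 0.89 for Atf3.

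Some of these calls depended on single libraries or settings. For Fosl1, at 0 to 0.09 FPKM in sham mice of day 3, the sign turned between day 3 and day 1 with a pseudocount of 0.1 (0.83, adjusted p = 0.21). Batf between day 3 and day 1 was lost with either other pseudocount, with no filter and in a fit of the groups alone. Its call was also lost with median-of-ratios scaling (0.47, adjusted p = 0.18) and after quantile normalization (0.10, adjusted p = 0.78). The same held without any of 7 single libraries, UIR replicate 1 of day 3 among them (0.48, adjusted p = 0.12). Fos between day 21 and day 1 was lost without sham replicate 3 of day 1 (1.44, adjusted p = 0.065), UIR replicate 3 of day 1 (1.68, 0.057), sham replicate 1 of day 21 (1.64, 0.062) or UIR replicate 2 of day 21 (1.72, 0.058). Median-of-ratios scaling lost that Fos call as well (1.41, adjusted p = 0.11). With median-of-ratios scaling the growth for Junb was not called from day 1 to day 3 (0.55, adjusted p = 0.2) or to day 21 (0.71, adjusted p = 0.086). Jun from day 1 to day 21 was called without sham replicate 3 of day 21, the library with 41.25 FPKM (1.00, adjusted p = 0.041). Atf3 from day 1 to day 21 was called without UIR replicate 1 of day 1 (1.37, adjusted p = 0.0037), as TPM (1.54, 0.011) and with a pseudocount of 0.1 (1.92, 0.0067). A pseudocount of 5 turned its sign (−0.30, adjusted p = 0.53). Atf3 from day 3 to day 21 was called in a fit of the groups alone (0.88, adjusted p = 0.0081) and without UIR replicate 1 or 3 of day 1 (0.046 and 0.039). Fos from day 3 to day 21 was called in such a fit, with a pseudocount of 5 and after quantile normalization. It was also called without sham replicate 1 or 3 of day 1, sham replicate 3 of day 21 or UIR replicate 1 of day 21. Jund from day 1 to day 3 was lost without sham replicate 2 of day 3 (−0.54, adjusted p = 0.054), as TPM (−0.36, adjusted p = 0.13) and after quantile normalization (−0.42, adjusted p = 0.1), and from day 1 to day 21 after quantile normalization (−0.43, adjusted p = 0.08). Fosb from day 1 to day 3 was lost with a pseudocount of 0.1 (−1.30, adjusted p = 0.15), and Fosl1 as TPM (−0.59, adjusted p = 0.24). Fosb from day 1 to day 21, not called as reported (−0.84, adjusted p = 0.15), was called with a pseudocount of 5, median-of-ratios scaling, quantile normalization or without UIR replicate 3 of day 1.

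Within UIR mice most subunits were lower on day 3 than on day 1, and part of the family was higher again on day 21. By limma, 7 of the 9 were lower and 1, Batf, higher at day 3 than at day 1, against 17.1% and 49.4% of all genes. The differences were −3.04 for Atf3, −2.90 for Fosl1, −2.55 for Fosb, −2.12 for Fos, −1.54 for Jun, −1.06 for Junb and −1.01 for Jund, with Fosl2 at 0.01 and Batf at 0.53 (adjusted p = 0.031). At day 21, 5 were higher than at day 3 (Fos 2.32, Batf 1.81, Fosb 1.21, Atf3 0.99 and Junb 0.69) and 1 lower (Fosl1, −3.69), against 32.2% and 24.0%, while Jun (0.38), Fosl2 (0.34) and Jund (−0.14) were not called. Without UIR replicate 3 of day 21 only 3 were called higher, and Junb was not called with median-of-ratios scaling (0.59, adjusted p = 0.057) nor Fosb after quantile normalization (0.85, adjusted p = 0.052). Compared with day 1, 1 was higher at day 21 (Batf, 2.35) and 5 lower (Fosl1 −6.59, Atf3 −2.05, Fosb −1.34, Jun −1.16 and Jund −1.15), against 53.1% and 21.2%, and Fosl2 (0.35), Fos (0.21) and Junb (−0.37) were not called. Of all calls in UIR mice, 74.3% were higher at day 3 and 71.4% at day 21 than at day 1 as deposited, and 47.35% and 46.45% with median-of-ratios scaling. From day 3 to day 21 that share was 57.3% as deposited and 45.25% after quantile normalization. Batf at day 3 over day 1 was lost without UIR replicate 1 of day 3 (0.30, adjusted p = 0.19) or UIR replicate 1 of day 1 (0.41, adjusted p = 0.13), with median-of-ratios scaling (0.32, adjusted p = 0.17) and after quantile normalization (0.057, adjusted p = 0.82), and Jun at day 21 under day 1 without UIR replicate 1 of day 1 (−0.84, adjusted p = 0.086).

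The make-up of the Fos family differed by day. The summed level of its 4 genes was 207 ± 86 FPKM at day 1, 50.1 ± 2.2 at day 3 and 77.8 ± 23.1 at day 21 in UIR mice, against 30.6 ± 15.5, 3.97 ± 0.83 and 6.39 ± 2.46 FPKM in sham mice of those days (SD, n = 3 each). Fosl1 made up 64.2% ± 5.1 of that sum at day 1 in UIR mice, 31.7% ± 2.5 at day 3 and 0.40% ± 0.07 at day 21, against 7.70% ± 5.58, 1.15% ± 1.22 and 0.19% ± 0.33 in sham mice. Fosl2 made up 14.1% ± 5.4 at day 1, 52.8% ± 7.8 at day 3 and 45.3% ± 9.9 at day 21 in UIR mice, against 36.0% ± 15.3, 45.8% ± 11.0 and 38.6% ± 13.7 in sham mice. For Fos the shares were 16.5% ± 1.8, 13.6% ± 4.4 and 49.7% ± 8.8 in UIR mice, against 53.2% ± 20.3, 49.6% ± 9.4 and 55.7% ± 12.3 in sham mice. At day 21 the UIR and sham make-up overlapped for all 4 genes in the range of their libraries, although the sums did not. With 3 libraries against 3 an exact permutation test cannot go below p = 0.1, so no test is given for these shares.

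The Jun family summed to 532.0 ± 154.8 FPKM at day 1, 228.1 ± 4.7 at day 3 and 275.0 ± 41.9 at day 21 in UIR mice, against 168.7 ± 31.5, 73.0 ± 8.0 and 82.5 ± 24.2 FPKM in sham mice (SD, n = 3 each). Junb made up 26.4% ± 3.3 of it at day 1, 28.4% ± 0.8 at day 3 and 38.5% ± 2.5 at day 21 in UIR mice, against 26.8% ± 5.6, 12.5% ± 0.5 and 15.9% ± 3.9 in sham mice. Jund made up 44.9% ± 6.5, 50.0% ± 1.0 and 37.8% ± 0.5 in UIR mice, against 39.9% ± 5.2, 70.5% ± 2.9 and 60.5% ± 10.4 in sham mice. On the later days, then, the Junb share was above and the Jund share below that of every sham library, while at day 1 the ranges overlapped.

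**Figure D4:**
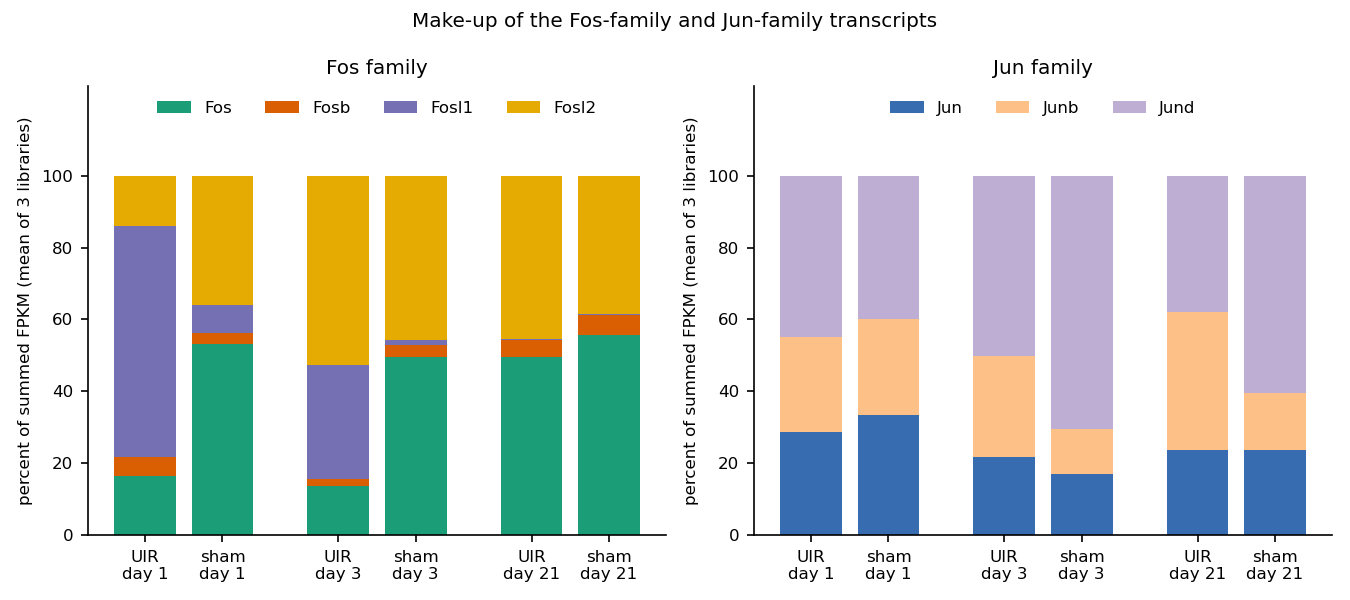
Share of each gene in the summed FPKM of the Fos family (left) and the Jun family (right), as the mean of 3 libraries per group, with UIR left of sham on each day. Fosl1 makes up 64.2% of the Fos family in UIR mice at day 1 and 0.40% at day 21, and Junb 38.5% of the Jun family in UIR mice at day 21 against 15.9% in sham mice.

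In order of level, Jund, Jun, Junb, Fosl1, Atf3 and Fos ran from 235.8 to 34.7 FPKM at day 1 in UIR mice, each overlapping the next in its range of libraries. Fosl2, Fosb (11.3 FPKM) and Batf (0.73 FPKM) followed, with Fosl2 overlapping Fos and clear of Fosb. At day 3 in UIR mice the order was Jund, Junb, Jun, Fosl2, Fosl1, Atf3, Fos, Batf and Fosb, and only Atf3 with Fos and Batf with Fosb overlapped. At day 21 it was Junb, Jund, Jun, Fos, Fosl2, Atf3, Batf, Fosb and Fosl1 in UIR mice, with overlap of Junb with Jund and of Fos with both Fosl2 and Atf3. In sham mice Jund was the highest and the 3 Jun genes led on each day, and Fosl1 was the lowest at day 3 and day 21.

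The genes that feed into AP-1 or answer to it were examined as lists, whose counts stand beside 28.5% of all genes called higher and 31.1% lower at day 1, 57.6% and 17.9% at day 3, and 60.7% and 20.1% at day 21. Of 20 other bZIP genes, which include further dimer partners, 9 were called higher and 3 lower at day 1, 17 and 1 at day 3, and 17 and 1 at day 21 (limma, UIR minus sham). Their median log2 differences of 0.39, 0.74 and 1.27 stood beside −0.03, 0.44 and 0.53 for all genes. With median-of-ratios scaling the counts were 10 and 3 at day 3 and 11 and 3 at day 21, with medians of 0.30 and 0.71. Maff, a small Maf protein without a transactivation domain, rose by 1.83 at day 1 (adjusted p = 1.2e-07), 2.42 at day 3 and 2.38 at day 21. Batf3, the dendritic cell relative of Batf, led at day 21 by 2.72 (adjusted p = 1.8e-08), with 9.68 to 10.82 FPKM in UIR mice against 0.18 to 1.23 FPKM in sham mice. Maf was the bZIP gene that was lower on all 3 days (−1.42, −0.68 and −1.31) and is named after its values were seen.

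Mitogen-activated kinase cascades lie upstream of the subunits. Of 23 tested genes of the JNK and p38 cascades, 14 were called higher and 2 lower at day 1, 17 and 1 at day 3, and 13 and 1 at day 21. On the later days these counts rest on the scale: with median-of-ratios scaling they were 8 higher and 6 lower at day 3, and 8 and 9 at day 21. Map4k4, a kinase at the head of the JNK cascade, rose by 1.50 at day 1, 2.40 at day 3 and 2.31 at day 21 (adjusted p of 2.8e-08 or lower), and Gadd45b, a stress-induced activator of the p38 pathway, by 3.15 at day 21 (adjusted p = 3.5e-08). Of 18 genes of the ERK cascade and serum response factor, 13 were higher and 0 lower at day 1, 15 and 1 at day 3, and 12 and 3 at day 21. With median-of-ratios scaling they were 11 and 4 at day 3, and 10 and 6 at day 21. Nras, the Ras GTPase, rose by 1.56 at day 1 (adjusted p = 4.7e-10) and 1.83 at day 3, and Elk3, a partner of serum response factor, by 2.44 at day 21.

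Genes that act against the pathway were mostly called higher at day 1. Of 19 phosphatases, Sprouty proteins and mRNA-decay factors, 16 were called higher and 0 lower at day 1, 16 and 0 at day 3, and 13 and 1 at day 21 (median log2 difference 0.97, 1.05 and 1.12). The day-21 count is near the 60.7% of all genes, and it was 10 higher and 5 lower with median-of-ratios scaling (median 0.56) and 11 and 5 after quantile normalization (0.60). Dusp5, a nuclear ERK phosphatase, rose by 3.49 at day 1 (adjusted p = 4.5e-09), with 32.97 to 66.39 FPKM in UIR mice against 3.23 to 4.40 FPKM in sham mice. Dusp1, which acts on p38 and JNK, rose by 2.62 at day 1 (adjusted p = 2.5e-05), with 152.4 ± 67.7 FPKM in UIR mice and 23.5 ± 9.6 FPKM in sham mice (SD, n = 3 each). It averaged 22.2 ± 4.1 FPKM in UIR mice and 23.3 ± 2.5 FPKM in sham mice at day 3. Dusp10, another JNK and p38 phosphatase, rose by 2.67 at day 1 (adjusted p = 3.8e-10).

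Of 27 tested genes reported as AP-1 targets, 20 were called higher and 4 lower at day 1, 23 and 1 at day 3, and 22 and 1 at day 21. Their medians were 1.96, 2.69 and 3.13. Different genes led on different days. The cornified envelope gene Sprr2f (4.78) and the urokinase receptor Plaur (3.90) were among the leading genes at day 1. Plaur was at 137.33 to 231.05 FPKM in UIR mice at day 1, against 9.43 to 13.74 FPKM in sham mice, and at 13.26 to 17.13 FPKM in UIR mice at day 21, against 1.24 to 2.39 FPKM in sham mice. The hyaluronan receptor Cd44 (5.70), the monocyte chemokine Ccl2 (5.50) and again Sprr2f (5.23) led at day 3. The macrophage elastase Mmp12 (5.87), the protease inhibitor Timp1 (5.50) and the membrane collagenase Mmp14 (4.58) led at day 21. Mmp12 was at 95.39 to 105.14 FPKM in UIR mice at day 21, against 0.62 to 0.88 FPKM in sham mice, beside the macrophage sums given above. Vegfa, lower on all 3 days (−0.77, −1.30 and −0.89), is named after its values were seen. The list was drawn from general knowledge of many cell types, and regulation by AP-1 was not measured here.

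**Figure D5:**
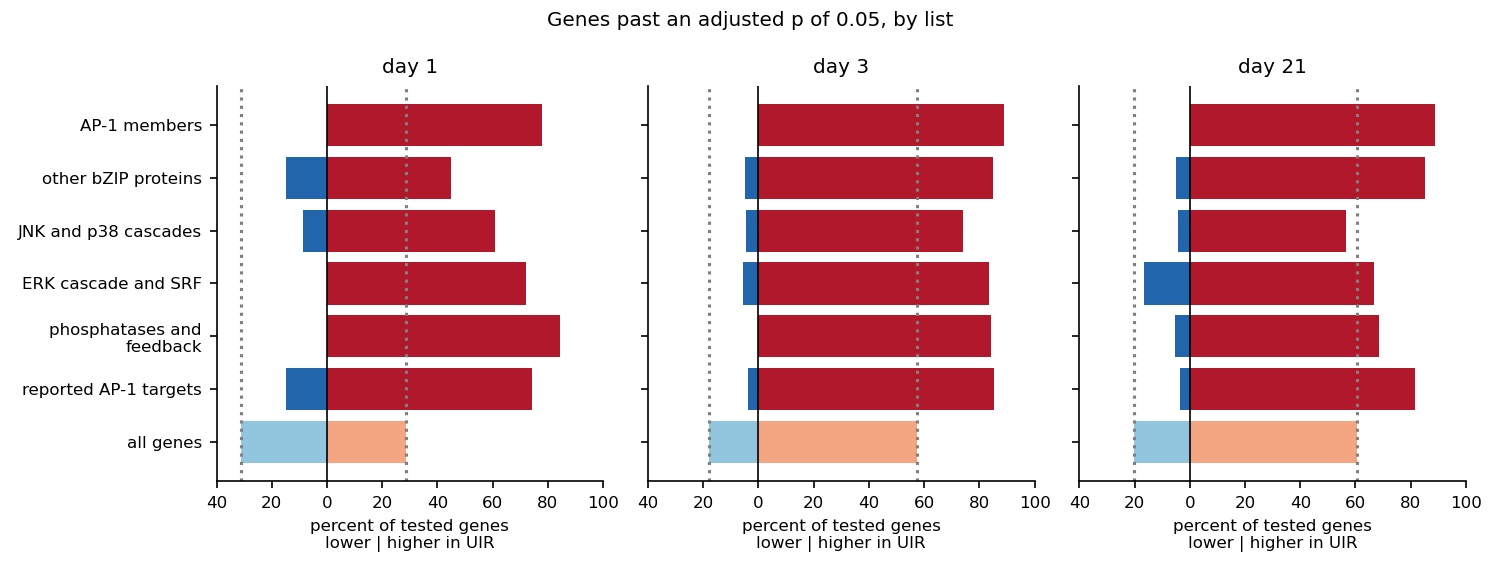
Percent of the tested genes of each list that were called higher (right, red) or lower (left, blue) in UIR than in sham mice at day 1, 3 and 21, with all 14716 genes in the bottom row and as dotted lines. At day 1 the AP-1 genes (7 of 9) and the phosphatases and feedback genes (16 of 19) have the longest bars, and at day 21 the JNK and p38 genes (13 of 23) fall short of the 60.7% of all genes.

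Of 18 other immediate early genes, 10 were called higher at day 1, 17 at day 3 and 18 at day 21, and 0 lower on any day (limma), beside 28.5%, 57.6% and 60.7% of all genes. At day 3 the count was 13 with median-of-ratios scaling and 12 after quantile normalization. Klf6, a zinc finger factor, rose by 3.39 at day 1 (adjusted p = 6.3e-10) and 3.36 at day 3, and Egr2 (3.73) and Egr1 (3.26), both serum-induced zinc finger factors, led at day 21.

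The genes whose course over the 6 group means was closest to each AP-1 gene were found among 9399 genes with a mean of at least 5 FPKM, by the root mean square difference (RMS) of the centred log2 profiles. Nr4a1 (RMS 0.39), Egr1 (0.41) and Btg2 (0.41), which are themselves immediate early genes, were closest to Fos, whose own spread over the groups was 1.39. Ier2 (0.23), Rnd3 (0.24) and Ddit4 (0.25) were closest to Jun, and Efhd2 (0.19), Ier2 (0.30) and Egr1 (0.33) to Junb. Pde4b (0.31), Hilpda (0.32) and Ier3 (0.35) were closest to Fosb, and Sphk1 (0.36), Cdkn1a (0.38) and Socs3 (0.39) to Atf3.

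For Fosl1, Gsta1, a glutathione transferase, came nearest at an RMS of 0.56 beside a spread of Fosl1 itself of 2.56, followed by the chromatin protein Hmga1 (0.87) and Plaur (0.97). Gsta1 averaged 86.5 FPKM at day 1, 13.2 at day 3 and 0.08 at day 21 in UIR mice, against 4.60, 0.94 and 0.24 FPKM in sham mice. Fosl2 was closest to the acetylcholine receptor subunit Chrnb1 (0.16), the NF-kB subunit Relb (0.19) and Ctxn1 (0.19), and Jund to Kctd1 (0.09), Foxq1 (0.10) and the kinase Src (0.10). Batf was closest to Rcsd1 (0.08), Irf5 (0.09) and Rarg (0.10). Irf5, an interferon regulatory factor of myeloid and B cells, averaged 6.48, 11.9 and 40.2 FPKM in UIR mice at day 1, 3 and 21, against 5.58, 5.22 and 5.86 FPKM in sham mice. Batf averaged 0.73, 1.55 and 7.79 FPKM in UIR mice on those days, against 0.52, 0.31 and 0.32 FPKM in sham mice. The pseudocount of 1 shrinks the change of such low values, and only genes averaging at least 5 FPKM were compared with it. A small RMS beside Batf therefore does not mean a like fold of FPKM. Among the 9 genes themselves, Fosl2 and Junb were closest to each other (0.35), and Fosl1 was farthest from its nearest, Atf3 (1.62).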

How the data were processed

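The authors deposited FPKM values of 20825 genes (Entrez Gene IDs and symbols) for 18 kidney libraries. The submitters' processing notes list RSEM 1.2.12, HISAT2 2.0.4 and Bowtie2 2.2.5 as tools and mm9 as the build. What each tool did, the library kit, strand and any further scaling are not given in the sources used here. FPKM were rounded to 2 decimals and low values showed no whole-read steps, so depth per library is unknown. Summed FPKM ran from 424207 to 549490 per library. Of the symbols, 27 had been turned into dates and were restored from their Entrez IDs. No pair of libraries held identical values.

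Genes with at least 1 FPKM in at least 3 libraries (14716) were fitted as log2(FPKM + 1) with limma 3.58.1 in R 4.3.3, using all 18 libraries, 1 mean per group, an intensity trend and two-sided moderated tests. P-values were adjusted by Benjamini-Hochberg over all genes tested and called under 0.05. The fit was tested on simulated data. The labels call the libraries biological replicates without naming animals, so p-values measure the spread between these samples, and no batch or date is given.

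By the rule for named genes, the 9 genes enter every comparison, some of them there only in a count or range, and from each other list up to 3 called genes with the largest difference per comparison. A gene that this rule would name is not reported here. The members and lists were chosen with earlier results of these data known, and the target list is not independent evidence. The alternatives were pseudocounts of 0.1 and 5, no filter and a filter at 5 FPKM, TPM, median-of-ratios scaling, quantile normalization, a fit of the compared groups alone, a replicate block, later sham mice as day-1 controls, and each library left out. Promoter windows come from RefSeq on GRCm38.p6, which is another build than that of the expression values, so no coordinates are given for the expression values.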

Additional observations from a re-analysis of the deposited data

Results flagged for a closer look

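The difference between UIR and sham mice was itself different between days for 7 of the 9 AP-1 genes by limma, which flagged 14 results. Such calls were common among all genes tested. From day 1 to day 3 the change was called higher for 50.1% of all genes and lower for 12.7%. The shares were 26.1% and 20.2% from day 3 to day 21, and 54.1% and 16.3% from day 1 to day 21. Values are changes of the log2 difference, later day minus earlier day. For Fosl1 it shrank by 1.41 from day 1 to day 3, by 3.64 from day 3 to day 21 and by 5.05 from day 1 to day 21 (changes of −1.41, −3.64 and −5.05). For Batf it grew by 0.72 from day 1 to day 3, by 1.82 from day 3 to day 21 and by 2.54 from day 1 to day 21. For Fosl2 it grew by 1.96 from day 1 to day 3 and by 2.07 from day 1 to day 21, and for Junb by 1.10 and 1.36. For Jund the changes were −0.64 from day 1 to day 3 and −0.70 from day 1 to day 21. For Fosb the change was −1.80 from day 1 to day 3, and for Fos 2.01 from day 1 to day 21. The sham level of day 1, to which the day-1 differences refer, was called above that of day 3 and of day 21 by limma for Fos, Fosl1, Fosl2 and Junb.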

How the results depend on the processing

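Over all alternatives, each call of a higher AP-1 gene in UIR than in sham mice kept its direction, and the call was lost under some of them for Fos and Batf at day 3. The counts of called AP-1 genes that moved by over 1.5 times, with the cause not tested, were these. From day 1 to day 3, the number whose UIR difference shrank was 1 with a pseudocount of 0.1 and 1 as TPM (3 as reported), and the number for which it grew was 1 with median-of-ratios scaling (3). From day 3 to day 21 it grew for 2 with a pseudocount of 5, 2 after quantile normalization and 3 in a fit of the groups alone (1), and for 1 to 3 with a library left out. Day 21 against day 1 gave growth for 2 with median-of-ratios scaling (4). In UIR mice, 0 were higher at day 3 than at day 1 with a pseudocount of 0.1, median-of-ratios scaling, quantile normalization or the groups alone (1), and 0 to 1 with a library left out. At day 21, 2 were higher than at day 1 with a pseudocount of 5 or as TPM (1), and 1 to 2 with a library left out; 3 to 6 were higher than at day 3 with a library left out (5).

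Between sham mice of day 21 and day 3, all genes called numbered 12 and 2 with pseudocounts of 0.1 and 5, 8 with median-of-ratios scaling and 11 after quantile normalization (5 as reported), and 0 to 419 with a library left out, the highest without sham replicate 3 of day 3 and the next, 108, without UIR replicate 3 of day 1.

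Signs turned for changes between days that were near 0 or not called, apart from Fosl1. Between day 1 and day 3, with pseudocounts, the change was 0.83 for Fosl1 (0.1), and −1.04 for Atf3 (limma adjusted p = 0.039) and −0.15 for Fos (5). It was −0.019 for Jun, −0.37 for Atf3 and −0.19 for Fos with median-of-ratios scaling, and −0.46 for Atf3 and −0.32 for Fos after quantile normalization. For day 21 against day 1 it was −0.30 for Atf3 with a pseudocount of 5 and −0.23 for Jun with median-of-ratios scaling. From day 3 to day 21 it was 0.10 for Jun after quantile normalization. Fos in UIR mice of day 21 minus day 1 was −0.29 with median-of-ratios scaling. With a library left out, the change from day 1 to day 3 ran from −0.47 to 0.49 for Atf3 and from −0.30 to 0.84 for Fos. From day 3 to day 21 it ran from −0.16 to 0.084 for Jund, −0.44 to 0.47 for Jun and −0.065 to 0.26 for Fosl2. For day 21 against day 1 it ran from −0.0098 to 1.00 for Jun, and Fos in UIR mice of day 21 minus day 1 from −0.13 to 0.57.

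Same-numbered UIR and sham libraries had correlations of deviations from −0.07 to 0.11, so the numbers were not taken as pairs; the replicate block gave 7, 8 and 8 genes higher at day 1, 3 and 21, and 8705 called genes at day 1 (8770 without it). The depth is unknown, and log2 differences that rest on values under about 1 FPKM depend largely on the pseudocount. Such values include those of Fosl1, Fosb and Atf3 in sham mice of days 3 and 21. Batf was under 1 FPKM in all sham mice and in UIR mice of day 1.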
